A study of Mus musculus with 6 samples.

Results

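The 37 cell cycle genes described here were chosen as a list of symbols, with earlier results of these data known, and taken by gene symbol from the count table of a whole-liver RNA-seq study. All 37 were found among its 55416 gene IDs, and all 37 passed the filter on low counts, which left 17083 genes for testing. Of the 37, 24 act mainly in G2 and mitosis, 11 act in entry into and passage through S phase, and 2, Ccnd1 and E2f1, act in G1. The liver came from male mice that all carried Ephb2flox/flox, a conditional allele of the ephrin receptor gene Ephb2. KO mice (n = 3) also carried PdgfrbCreERT2, a tamoxifen-inducible recombinase driven by the Pdgfrb promoter, which is active in hepatic stellate cells and other mesenchymal cells, and WT mice (n = 3) lacked Cre. Mice of both groups were given tamoxifen by injection on 5 consecutive days at 8 to 10 weeks of age and then ate a choline-deficient, amino acid-defined (CDAA) high-fat diet for 8 weeks (45% of calories as fat, 0.1% methionine and 1% cholesterol). There was no Cre-carrying control without the floxed allele, so an effect of Cre and an effect of the deletion cannot be told apart. Libraries represented all cells of the liver, so fewer cells of a type and less RNA per cell cannot be told apart either. Nothing in the labels beyond the sample numbers says how the replicates relate, so p-values measure only the spread between these libraries.

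Libraries held 21160690 to 26339251 counts. Ephb2, the targeted gene, had 6.01, 8.87 and 6.95 CPM (counts scaled to library size, with TMM factors) in KO libraries 1 to 3, against 9.46, 8.28 and 12.4 CPM in WT libraries 1 to 3. Its log2 fold change was -0.46 (SE 0.21; edgeR quasi-likelihood test, adjusted p = 0.850). The Y-linked gene Ddx3y lay between 75.2 and 92.8 CPM in every library, as the male label requires. Xist, also checked for sex, was low but differed between the groups without overlap. It had 4.97, 5.12 and 2.18 CPM in KO libraries 1 to 3, against 1.29, 1.01 and 0.765 CPM in WT libraries 1 to 3. The cause was not tested. Liver identity was shown by hepatocyte genes, 12 of which summed to 47443 to 63535 CPM per library.

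Cells divide through an ordered program. Cyclin D with its kinases releases E2F factors from the RB proteins in G1, E2F factors and cyclin E then switch on the genes of DNA replication, and a later wave of genes, driven by the MuvB complex with B-MYB and FOXM1, builds the spindle, the kinetochores and the machinery of chromosome separation. Most adult hepatocytes rest outside the cycle, and the injured liver re-enters it. In the liver, cells can also replicate DNA without dividing, which leaves polyploid hepatocytes, so S-phase and mitotic transcripts are worth reading separately.

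The mitotic genes lay lower in KO than in WT liver as a group, and the S-phase genes lay on both sides of 0. All 24 mitotic members had a negative log2 fold change, from -0.57 to -0.10 with a median of -0.30, a level in KO liver of 0.813 times that in WT liver. Of the 11 S-phase members 5 were negative and 6 positive, with a median of 0.0014 and a range of -0.19 to 0.19. The median of all 17083 genes tested was -0.0048, and 51.0% of them were negative. No member passed edgeR's quasi-likelihood test after Benjamini-Hochberg adjustment at 0.05 over all genes (smallest adjusted p = 0.850), and neither did any other gene, a background of 0%. At an unadjusted p under 0.05, edgeR gave 8 of the 37 members, all mitotic and all lower in KO liver, which is 21.6% of the members, where 5.19% of all genes tested passed in either direction, 2.10% lower and 3.08% higher. At an unadjusted p under 0.05, DESeq2 also gave 8 of 37 members lower, beside 1.37% of its 29609 genes, and limma-voom gave 7, beside 2.02% of its 17083 genes. The DESeq2 share is over all genes with any count, without the low-count filter, and so is not comparable with the others. After adjustment 0 members were called by either (smallest member adjusted p 0.177 in DESeq2 and 0.850 in limma-voom). In edgeR the count of 8 was 14 without WT library 3, where 1.83% of all genes were lower at that level, and 5 without WT library 1, where 1.79% were. It was 4 without KO library 2, beside 2.22% of all genes, and 4 without WT library 2, beside 4.46%.

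**Figure D1:**
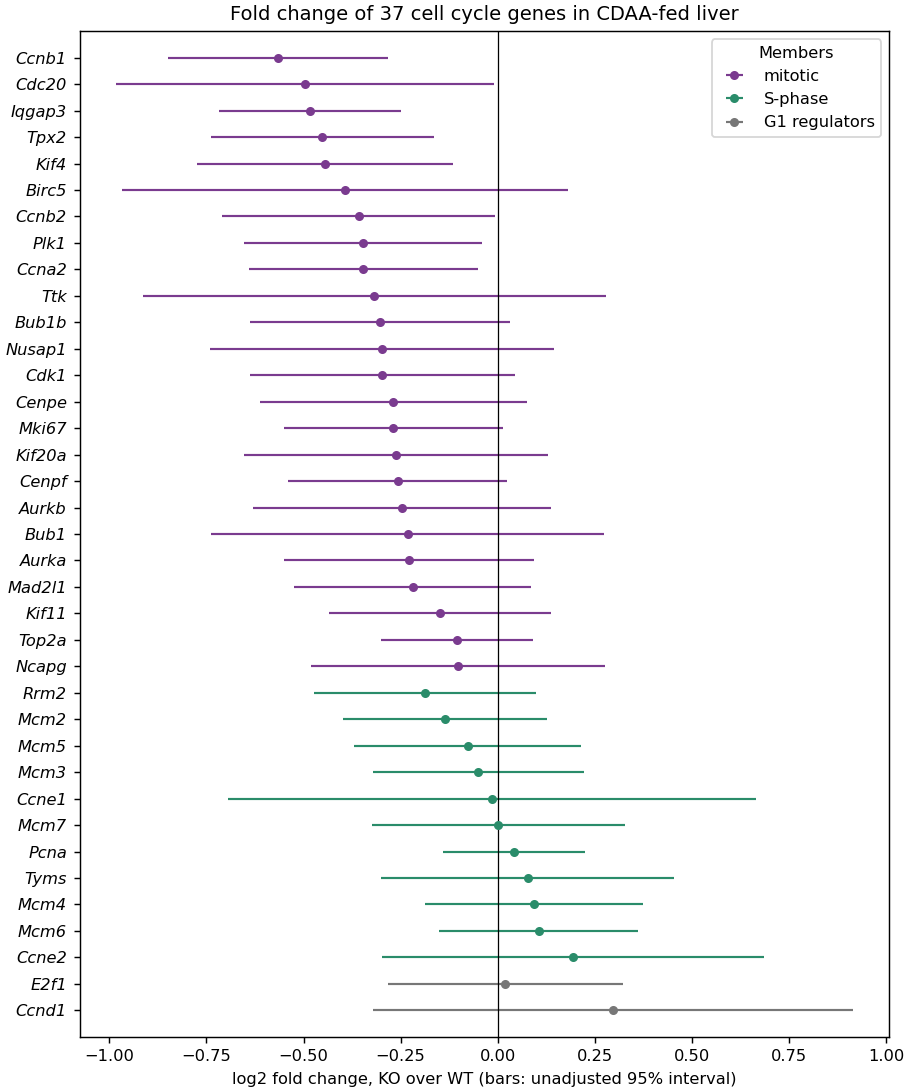
Log2 fold change of each of the 37 members, KO over WT (x axis), with unadjusted 95% intervals as bars, grouped as mitotic (top), S-phase and G1 regulators (bottom). All 24 mitotic points lie left of 0, 8 of their intervals exclude 0, and none of the S-phase or G1 intervals does.

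Averaged over the 24 mitotic members, the level per library was 3.47, 3.39 and 3.51 log2 CPM in KO libraries 1 to 3, against 3.85, 3.85 and 3.58 log2 CPM in WT libraries 1 to 3. With TMM scaling the KO libraries lay close together and all below the WT libraries, of which WT library 3 stood nearest to them. Scaled by library size alone, KO libraries 1 to 3 were at 3.50, 3.39 and 3.59 log2 CPM. WT libraries 1 to 3 were then at 3.77, 3.89 and 3.49 log2 CPM, so WT library 3 lay below KO libraries 1 and 3. WT library 3 also held the most Kupffer, neutrophil, sinusoidal endothelial and erythroid marker RNA, whose part in its mitotic level was not tested. The difference of the means was -0.30, with an SD of 0.06 in KO and 0.16 in WT (n = 3 each). For the 11 S-phase members the averages were 3.68, 3.55 and 3.49 log2 CPM in KO, against 3.46, 3.64 and 3.62 log2 CPM in WT, so the groups overlapped throughout. The mitotic average minus the S-phase average was -0.20, -0.16 and 0.01 in KO libraries and 0.39, 0.21 and -0.04 in WT libraries. On that scale KO library 3 and WT library 3 overlapped, and the other 4 libraries were apart. These averages are given without a test, because the members were picked with results of the same libraries known.

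**Figure D2:**
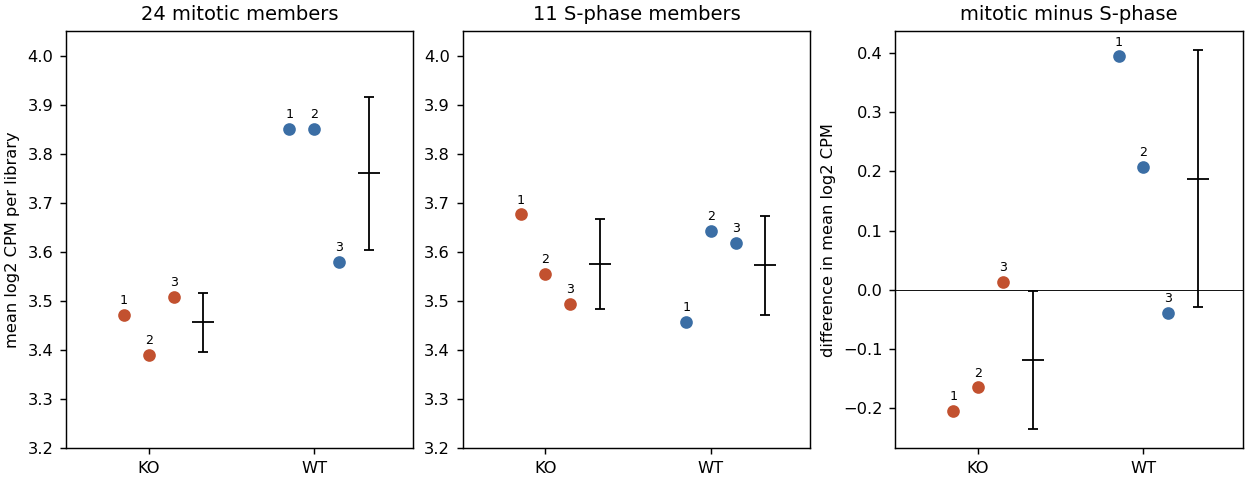
Mean log2 CPM per library (y axis) of the 24 mitotic and the 11 S-phase members, and the mitotic mean minus the S-phase mean, for KO and WT libraries. Points are libraries numbered by replicate and black bars are the mean and SD of 3 libraries. With TMM scaling, the mitotic mean is 3.39 to 3.51 in KO and 3.58 to 3.85 in WT libraries, while the S-phase means overlap.

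Library by library, KO libraries 1, 2 and 3 held the highest level for 0, 0 and 1 of the 24 mitotic members, and WT libraries 1, 2 and 3 for 12, 10 and 1. The lowest level fell in KO libraries 1, 2 and 3 for 7, 9 and 6 members, and in WT libraries 1, 2 and 3 for 0, 0 and 2. Over all genes tested, the highest level fell in KO libraries 1, 2 and 3 for 11.9%, 14.6% and 19.4% of genes and in WT libraries 1, 2 and 3 for 17.1%, 13.0% and 23.97%. WT library 3 was the lowest of the WT libraries for 20 of the 24 mitotic members, against 3 of the 11 S-phase members.

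**Figure D3:**
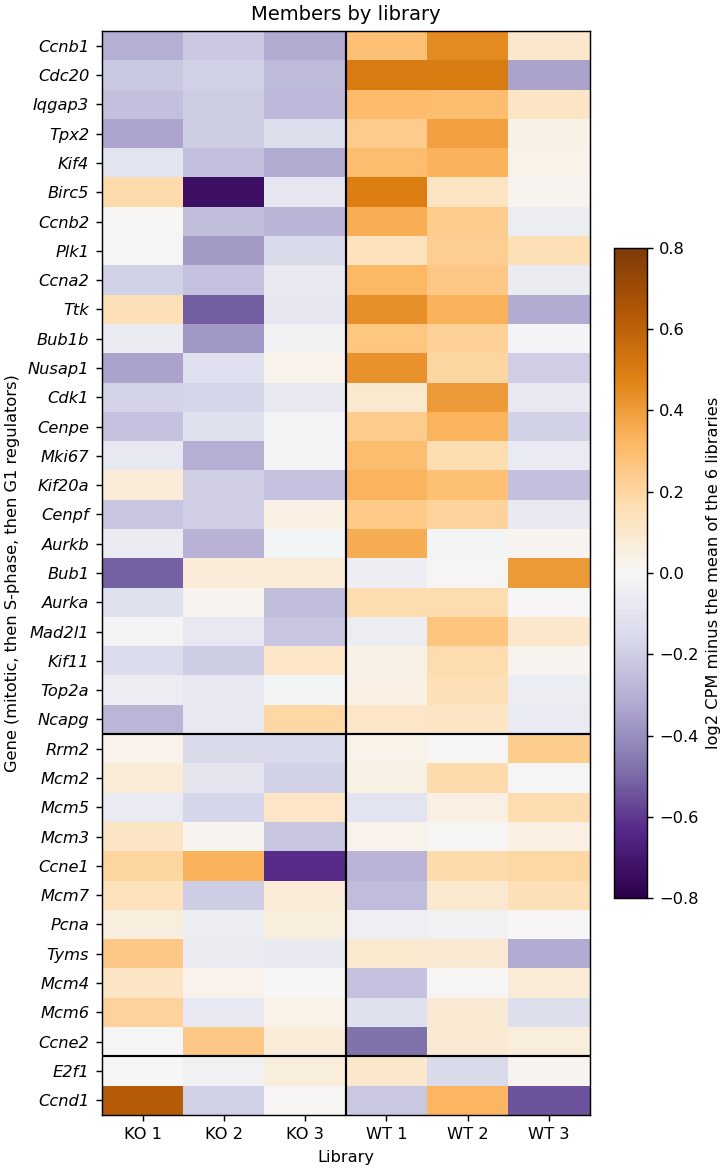
Log2 CPM of each member (rows) in each library (columns, KO left of WT) minus the mean of the 6 libraries, with orange above and purple below the mean. In the mitotic rows at the top, WT libraries 1 and 2 are mostly orange, the KO libraries mostly purple and WT library 3 mixed. The S-phase rows show no such block.

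Entry into mitosis is driven by CDK1 with cyclins A and B and by the kinases PLK1 and AURKA. Ccnb1, cyclin B1, had 10.7, 11.4 and 10.7 CPM in KO libraries 1 to 3, against 16.1, 18.1 and 14.3 CPM in WT libraries 1 to 3. The groups did not overlap, and its log2 fold change of -0.57 (SE 0.12, unadjusted p = 0.00177, adjusted p = 0.850 in edgeR's test) was the largest among the members. Ccna2, cyclin A2, had 13.5, 13.1 and 14.7 CPM in KO and 19.3, 18.4 and 14.9 CPM in WT libraries. They too did not overlap, though WT library 3 exceeded KO library 3 only narrowly, and the log2 fold change was -0.35 (SE 0.13). Ccnb2, cyclin B2, had 9.63, 8.08 and 7.89 CPM in KO and 12.2, 11.3 and 9.28 CPM in WT libraries, an overlap of KO library 1 with WT library 3 at a log2 fold change of -0.36 (SE 0.15). Cdk1, the kinase that these cyclins activate, had 9.72, 9.78 and 10.5 CPM in KO and 11.8, 14.6 and 10.4 CPM in WT libraries. WT library 3 was at the KO level, and the log2 fold change was -0.30 (SE 0.15, edgeR unadjusted p = 0.0792). Plk1, polo-like kinase, which helps activate CDK1 and mature centrosomes, had 9.63, 7.55 and 8.74 CPM in KO and 10.7, 11.4 and 10.9 CPM in WT libraries. Here WT library 3 stood with the other WT libraries, the groups did not overlap and the log2 fold change was -0.35 (SE 0.13). Aurka, the centrosomal Aurora kinase, was at -0.23 (SE 0.14), with WT library 3 below KO library 2.

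Spindle and cytokinesis genes held most of the other small p. Iqgap3, a scaffold protein of dividing cells, had 13.8, 14.1 and 13.5 CPM in KO libraries, against 20.1, 20.1 and 17.7 CPM in WT libraries. It had the smallest p of the members (log2 fold change -0.48, SE 0.10, unadjusted p = 0.00141, adjusted p = 0.850 in edgeR's test), with the KO libraries tightly together below every WT library. Tpx2, which nucleates spindle microtubules and activates AURKA, had 11.98, 13.1 and 13.8 CPM in KO and 17.9, 19.7 and 15.5 CPM in WT libraries, without overlap (log2 fold change -0.45, SE 0.12). Kif4, a chromosome-bound kinesin of the central spindle, had 7.45, 6.75 and 6.42 CPM in KO and 9.81, 10.1 and 8.18 CPM in WT libraries, also without overlap (-0.45, SE 0.14). Other motors and spindle proteins lay closer to 0. Kif11, the kinesin that pushes spindle poles apart, was at -0.15 (SE 0.12), Nusap1, a microtubule-bundling protein, at -0.30 (SE 0.19), and Kif20a, a kinesin of cytokinesis, at -0.26 (SE 0.17), each with overlapping groups.

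Among genes of the spindle checkpoint and of chromosome separation, Cdc20, the activator of the anaphase-promoting complex, had the widest gap within WT liver. It had 16.03, 16.3 and 15.5 CPM in KO libraries, against 26.4, 26.3 and 14.7 CPM in WT libraries, so that WT library 3 was the lowest of all 6. Its log2 fold change was -0.50 (SE 0.21, edgeR unadjusted p = 0.0463). Bub1b, the checkpoint protein BUBR1, had 9.89, 7.96 and 10.1 CPM in KO and 12.3, 11.97 and 10.2 CPM in WT libraries, with all KO libraries below the WT libraries by a narrow margin (-0.30, SE 0.15). The checkpoint genes Bub1, Mad2l1 and Ttk lay at -0.23 (SE 0.22), -0.22 (SE 0.13) and -0.32 (SE 0.26) with overlap. Cenpe and Cenpf, large kinetochore proteins, were at -0.27 (SE 0.15) and -0.26 (SE 0.12). Cenpf had 23.4, 23.9 and 28.3 CPM in KO and 32.6, 31.7 and 26.1 CPM in WT libraries, and only WT library 3 fell inside the KO range. Aurkb and Birc5, the kinase and the survivin subunit of the chromosomal passenger complex, were at -0.25 (SE 0.17) and -0.39 (SE 0.25).

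Of the markers most often used for proliferating cells, Mki67, the Ki-67 antigen, had 89.4, 76.2 and 93.1 CPM in KO libraries, against 116, 106 and 90.2 CPM in WT libraries. KO library 3 lay above WT library 3, and the log2 fold change was -0.27 (SE 0.12, edgeR unadjusted p = 0.0586). Top2a, the topoisomerase that untangles replicated chromosomes, had 38.7, 38.1 and 39.6 CPM in KO and 41.5, 44.9 and 38.7 CPM in WT libraries, with overlap and a log2 fold change of -0.11 (SE 0.09). Ncapg, a subunit of condensin, was nearest to 0 of the mitotic members, at -0.10 (SE 0.16).

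In all, 7 of the 37 members, Ccna2, Ccnb1, Bub1b, Plk1, Kif4, Tpx2 and Iqgap3, had every KO library below every WT library, and 0 had the reverse. That is 7 of 24 mitotic members, where 4.90% of all genes tested had this order and 6.21% the reverse. For each of the 7 the two-sided exact permutation test over libraries gave p = 0.1, the smallest that 3 against 3 libraries can give. Without WT library 3 the mitotic median log2 fold change was -0.41, against -0.25 without WT library 1.

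**Figure D4:**
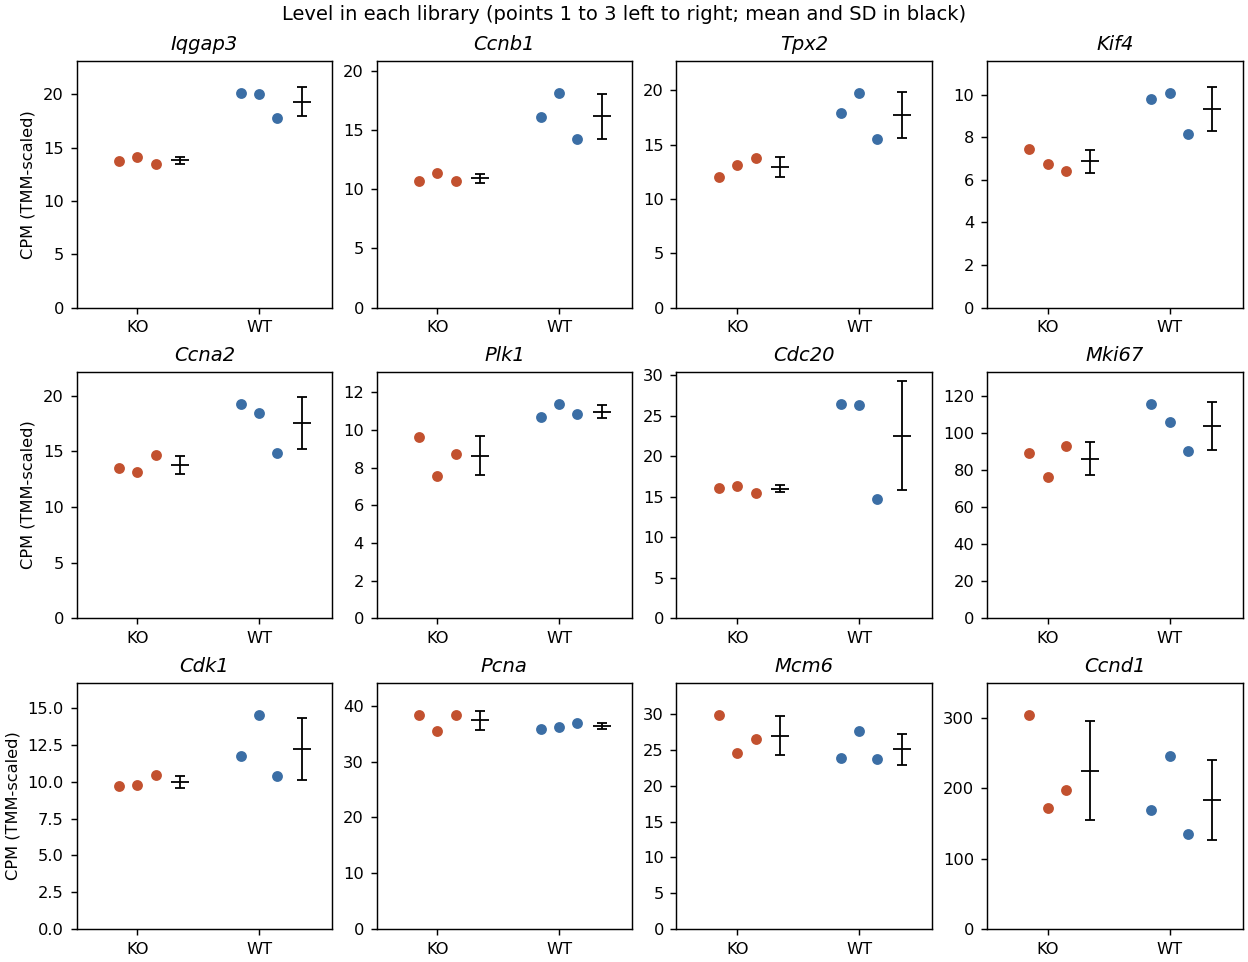
CPM of 12 members in each library (points, in replicate order from left), with the mean and SD of 3 libraries in black, KO left of WT, and a y axis from 0. Iqgap3, Ccnb1, Tpx2, Kif4, Ccna2 and Plk1 separate the groups, WT library 3 drops to the KO level for Cdc20, and Pcna, Mcm6 and Ccnd1 overlap.

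Among the S-phase members no unadjusted 95% interval excluded 0. Pcna, the sliding clamp of DNA polymerases, had 38.3, 35.5 and 38.4 CPM in KO libraries, against 35.9, 36.2 and 36.97 CPM in WT libraries. Its log2 fold change was 0.04, with an unadjusted 95% interval from -0.14 to 0.22. Mcm2 to Mcm7 encode the 6 subunits of the replicative helicase. Mcm2 had 16.8, 14.9 and 14.0 CPM in KO and 16.3, 18.0 and 15.8 CPM in WT libraries (log2 fold change -0.14, interval -0.40 to 0.13). Mcm6 had 29.9, 24.5 and 26.5 CPM in KO and 23.9, 27.6 and 23.7 CPM in WT libraries (0.11, interval -0.15 to 0.36). Both overlapped, as did the other 4 subunits, Mcm3 at -0.05 (SE 0.12), Mcm4 at 0.09 (SE 0.12), Mcm5 at -0.08 (SE 0.13) and Mcm7 at 0.0014 (SE 0.14). Of the enzymes that make DNA precursors, Rrm2, the small subunit of ribonucleotide reductase, was at -0.19 (SE 0.12) and Tyms, thymidylate synthase, at 0.08 (SE 0.16). Ccne1, cyclin E1, had 2.22, 2.43 and 1.25 CPM in KO and 1.58, 2.18 and 2.20 CPM in WT libraries, from 28 to 64 reads per library, and its unadjusted 95% interval ran from -0.70 to 0.66. Ccne2, cyclin E2, was at 0.19 (SE 0.21).

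Ccnd1, cyclin D1, which couples growth signals to the cycle, had 305, 173 and 198 CPM in KO libraries, against 169, 246 and 135 CPM in WT libraries. The groups overlapped, with a log2 fold change of 0.30 (SE 0.27, edgeR adjusted p = 0.859). The highest value was in KO library 1 and the next highest in WT library 2. E2f1, an activator of the replication genes, had 7.93, 7.77 and 8.29 CPM in KO and 8.52, 7.14 and 8.03 CPM in WT libraries, a log2 fold change of 0.02 (SE 0.13).

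Per length, over exonic bases of GENCODE M21 and as the mean of the 6 libraries, Ccnd1 led at 139 TPM (transcript level scaled by length and depth), followed by Pcna at 48.9, Cdc20 at 32.7, Mki67 at 30.0 and Ccnb2 at 20.1 TPM. The mitotic members ran from 2.60 TPM for Ttk to 32.7 TPM with a median of 6.88, and the S-phase members from 2.36 TPM for Ccne1 to 48.9 TPM with a median of 11.8. Counts behind single values ran from 66 to 2517 reads per library for mitotic and from 28 to 935 for S-phase members. For single members the SE had a median of 0.14 among mitotic and 0.12 among S-phase genes. In the annotation, Ccna2, Cdc20, Kif20a, Kif4, Nusap1, Ncapg, Mcm7, Ccne2 and Ccnd1 overlap a protein-coding gene on the opposite strand. The strand setting of the counting is not given in the sources used here, so reads of such pairs cannot be told apart. Of the 7 members without overlap between the groups, Ccnb1, Plk1, Tpx2, Iqgap3 and Bub1b have no such partner.

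CHR elements were more frequent in promoters of mitotic than of S-phase members, though both kinds held CCAAT boxes. The cell cycle homology region (CHR), the letters TTTGAA or TTCGAA, is the site through which MuvB complexes are known to bind late cell cycle genes, often near CCAAT boxes bound by NF-Y, and E2F factors bind cores such as TTCCCGC or TTGGCGC or TTCGCGC. Each was searched on both strands in RefSeq windows on GRCm38.p6 from 250 bases before to 50 bases after the transcription start, where 30 of the 37 genes were matched. The windows of 4 mitotic genes with separated groups and of 1 S-phase gene are printed because they show both kinds, 5′ to 3′ on the gene's strand, with every CHR, CCAAT and E2F match in capitals.
Iqgap3, chr3:88081801-88082100, plus strand: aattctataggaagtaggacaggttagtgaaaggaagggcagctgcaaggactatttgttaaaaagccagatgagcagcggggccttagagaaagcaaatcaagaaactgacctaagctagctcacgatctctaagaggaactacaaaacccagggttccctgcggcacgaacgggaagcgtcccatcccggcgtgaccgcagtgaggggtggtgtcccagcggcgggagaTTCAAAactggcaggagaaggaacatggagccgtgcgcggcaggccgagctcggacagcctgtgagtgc
Plk1, chr7:122159185-122159484, plus strand: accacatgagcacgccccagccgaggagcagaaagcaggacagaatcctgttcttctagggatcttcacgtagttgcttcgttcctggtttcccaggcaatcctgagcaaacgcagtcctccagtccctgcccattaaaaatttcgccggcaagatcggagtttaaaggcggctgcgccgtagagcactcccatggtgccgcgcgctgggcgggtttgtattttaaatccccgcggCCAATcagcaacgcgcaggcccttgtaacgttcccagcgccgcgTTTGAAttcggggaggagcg
Kif4, chrX:100625815-100626114, plus strand: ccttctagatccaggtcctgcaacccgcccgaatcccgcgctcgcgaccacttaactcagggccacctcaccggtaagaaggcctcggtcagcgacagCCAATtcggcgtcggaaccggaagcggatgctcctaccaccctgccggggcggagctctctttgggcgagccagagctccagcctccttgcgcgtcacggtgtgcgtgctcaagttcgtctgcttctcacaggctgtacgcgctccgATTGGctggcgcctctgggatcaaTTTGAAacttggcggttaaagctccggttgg
Ccnb1, chr13:100786437-100786736, minus strand: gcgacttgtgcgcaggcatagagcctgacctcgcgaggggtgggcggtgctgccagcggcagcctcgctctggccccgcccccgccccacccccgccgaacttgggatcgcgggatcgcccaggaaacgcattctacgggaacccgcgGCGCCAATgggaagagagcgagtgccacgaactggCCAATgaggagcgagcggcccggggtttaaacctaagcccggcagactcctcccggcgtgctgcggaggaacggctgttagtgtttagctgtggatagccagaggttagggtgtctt
Mcm6, chr1:128359656-128359955, minus strand: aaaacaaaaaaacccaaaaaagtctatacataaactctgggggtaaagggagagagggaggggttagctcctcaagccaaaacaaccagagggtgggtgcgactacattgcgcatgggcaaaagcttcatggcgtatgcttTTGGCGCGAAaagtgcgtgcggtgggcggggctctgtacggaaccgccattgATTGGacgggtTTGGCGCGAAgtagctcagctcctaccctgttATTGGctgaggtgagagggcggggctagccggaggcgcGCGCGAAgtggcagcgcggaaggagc
Plk1 carries a CCAAT box whose first base is 14 bases before the start and a CHR whose first base is base 31 after it. Kif4 has CCAAT boxes at 152 and 5 bases before the start, the nearer on the other strand, and a CHR at base 20 after it. Iqgap3 has a CHR on the other strand at 19 bases before the start and no CCAAT box. Ccnb1 has 2 CCAAT boxes, at 99 and 67 bases before the start, the first of which overlaps an E2F core, and no CHR of these letters in the window. Mcm6 has 5 E2F matches, 2 pairs of which overlap each other on opposite strands, and 2 CCAAT boxes.

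A CHR was found in 15 of 20 mitotic windows (75.0%) and in 2 of 10 S-phase windows (20%, with 2 windows for Mcm7), where 19.2% of all 32851 windows of the same length held one, and 14.0% of those with a GC content in the range of the mitotic windows. CCAAT was found in 80.0% of both kinds, against 37.4% of all windows. Both motifs together occurred in 70.0% of mitotic, 20% of S-phase and 7.52% of all windows. E2F cores occurred in 20% of mitotic, 50% of S-phase and 8.07% of all windows, and in 10.5% of those in the mitotic GC range. The S-phase windows with an E2F core were those of Mcm3, Mcm5 and Mcm6 and both of Mcm7. Those of Mcm2, Pcna, Rrm2, Tyms and Ccne1 had none. The mitotic members without a CHR in the window lay as low as those with one, at a median log2 fold change of -0.30 for the 5 without and -0.30 for the 15 with it. Of all 11521 tested genes with a window, 2.22% were lower in KO liver at an unadjusted p under 0.05 in edgeR's test. Of the 786 with both motifs, listed cell cycle genes included, 4.58% were, at a median log2 fold change of -0.02. Without the genes of the cell cycle lists 739 were left, of which 2.98% were lower, at a median of -0.01. Those lists were chosen with results of these libraries known, so the fall in share cannot be read as a result about the motifs. A part of the motifs in the mitotic difference was not tested.

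**Figure D5:**
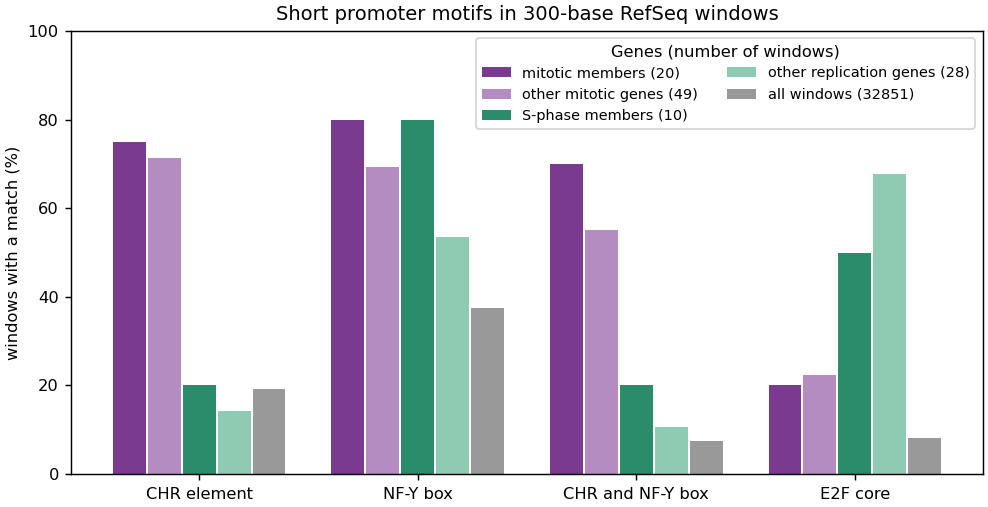
Share of promoter windows (y axis, percent) with a CHR element, a CCAAT box (NF-Y box), both, or an E2F core, for mitotic members, other mitotic genes, S-phase members, other replication genes and all windows, with the number of windows in the legend. The CHR is found in 75.0% of mitotic and 20% of S-phase windows, and the E2F core in 20% and 50%. All S-phase windows with an E2F core are of Mcm genes.

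Other genes of the program, on lists also chosen with results of these libraries known, gave the following counts. In a list of 50 further mitotic genes, all past the filter, 42 were negative and 8 positive, with a median log2 fold change of -0.20. At an unadjusted p under 0.05, edgeR gave 13 of the 50 lower (26%, against 2.10% of all genes) and 0 higher, and 0 passed after adjustment. Every KO library lay below every WT library in 14 of the 50, against 4.90% of all genes. The smallest p were those of Ect2, the exchange factor that starts cytokinesis, with 14.3, 15.4 and 16.8 CPM in KO and 22.4, 20.9 and 19.2 CPM in WT libraries (log2 fold change -0.43, SE 0.11), of Anln and of Cdca3. Anln, the ring protein anillin, had 13.8, 13.8 and 13.5 CPM in KO and 17.2, 18.1 and 16.3 CPM in WT libraries (-0.33, SE 0.10). Cdca3, a trigger of mitotic entry, had 10.4, 8.15 and 9.94 CPM in KO and 17.7, 14.1 and 10.9 CPM in WT libraries (-0.59, SE 0.19). None of the 3 overlapped between the groups. Foxm1, the transcription factor of the mitotic wave, was at -0.19 (SE 0.17), with 10.9, 9.74 and 9.40 CPM in KO and 14.2, 10.7 and 9.47 CPM in WT libraries that overlapped. In a list of 31 further replication genes 16 were negative and 15 positive, with a median of -0.01, and edgeR gave 0 at an unadjusted p under 0.05. In that list every KO library lay above every WT library for 2 genes and below for 1, beside 6.21% and 4.90% of all genes tested. The smallest p there were those of Rrm1, Orc6 and Gins4, none with overlap. Rrm1, the large subunit of ribonucleotide reductase, had 26.8, 25.7 and 25.8 CPM in KO and 21.4, 23.8 and 23.1 CPM in WT libraries (log2 fold change 0.20, SE 0.09). Orc6, of the origin recognition complex, had 5.71, 5.73 and 5.70 CPM in KO and 5.002, 4.58 and 5.02 CPM in WT libraries (0.23, SE 0.14). Gins4, of the helicase-activating GINS complex, was the 1 of these that was lower in KO, with 10.8, 9.44 and 11.4 CPM in KO and 12.7, 11.6 and 11.8 CPM in WT libraries (-0.19, SE 0.12). Averages per library of the 50 mitotic genes were 2.84, 2.83 and 2.95 log2 CPM in KO and 3.14, 3.18 and 2.92 log2 CPM in WT libraries, so here WT library 3 overlapped the KO libraries.

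Marker lists of several other cell types were also negative in all or most of their genes. Kupffer cell genes (10 of 10 negative, median log2 fold change -0.73) summed to 906, 927 and 641 CPM in KO libraries and 944, 709 and 1648 CPM in WT libraries. Sinusoidal endothelial genes (8 of 8 negative, median -0.17) summed to 627 to 788 CPM in KO and 713 to 1045 CPM in WT libraries, neutrophil genes (7 of 7 tested negative) to 36.5 to 91.8 CPM in KO and 33.02 to 130 CPM in WT libraries, and erythroid genes (8 of 8 tested negative) to 238 to 333 CPM in KO and 202 to 874 CPM in WT libraries. In all of these lists WT library 3 was highest, the WT library in which the mitotic average was lowest, and KO and WT libraries overlapped. Hepatocyte genes (11 of 12 negative, median -0.11) summed to 47443 to 63535 CPM in KO and 56308 to 62203 CPM in WT libraries. Lipid-associated macrophage genes (8 of 9 positive) summed to 2452 to 3237 CPM in KO and 2395 to 2707 CPM in WT libraries. Cholangiocyte genes (9 of 10 positive, median 0.38) summed to 1266 to 1614 CPM in KO and 915 to 1235 CPM in WT libraries without overlap, opposite in direction to the mitotic genes. Most of these sums came from Spp1, which is also on the lipid-associated macrophage list and overlapped. Spp1 had 803, 1166 and 970 CPM in KO and 613, 805 and 834 CPM in WT libraries. Averaged over the 10 genes, the level was 4.85 to 4.98 log2 CPM in KO and 4.28 to 4.78 log2 CPM in WT libraries. Stellate cell genes (7 of 12 negative) overlapped at 2907 to 3582 CPM in KO and 2516 to 3718 CPM in WT libraries. Low sums were found for T and NK cell markers, at 13.8 to 22.0 CPM in KO and 14.2 to 21.1 CPM in WT libraries, and for B and plasma cell markers, at 23.4 to 44.5 CPM in KO and 27.9 to 32.3 CPM in WT libraries. Mzb1 of plasma cells was at 0 in WT library 1, and Ly6g of neutrophils was at 0 in WT library 2. Acute phase genes (11 of 14 negative) were high in KO library 2 and WT libraries 1 and 3, from 34932 to 45409 CPM, and at 17369 to 20571 CPM in the other 3 libraries. The part of these cell types in the mitotic difference was not tested.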

How the data were processed

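RNA from 6 livers was enriched for poly(A) and sequenced from strand-specific libraries (NovaSeq), per the labels' protocols. The authors' deposited table holds unnormalized counts for each Ensembl gene ID. Per the submitters' processing notes, STAR 2.7.6a, featureCounts 1.6.3 and DESeq2 1.30.0 were used with build GRCm38 (mm10), in roles not stated. The annotation release is not given in the sources used here. Symbols, positions and lengths came from GENCODE M21, which held 94.0% of the gene IDs, and promoter windows from RefSeq on GRCm38.p6.

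Counts were tested with edgeR 4.0.16 in R 4.3.3 (glmQLFit without robust estimation, glmQLFTest) with TMM factors and filterByExpr (minimum count 10, minimum total 15). Genotype was the sole term, and p-values were Benjamini-Hochberg adjusted over 17083 genes at 0.05. The SE is the absolute log2 fold change over the root of the F statistic. CPM are TMM-scaled, logged levels used a prior count of 2, and intervals are 95% intervals. The procedure was tested on simulated counts.

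Members, gene lists and motifs were chosen with earlier results of these data known, so no set test was run. Values in every library are given for the 10 members with the smallest p, for usual stage markers and for 3 genes per further list with Foxm1 and Cdkn1a. Bub1b and Ncapg were singled out after their values were seen. Alternatives were other scalings and filters, DESeq2 1.42.0, limma-voom 3.58.1, a robust fit, a replicate block, fits lacking 1 library, the mitochondrial genes or the 20 genes with most counts, and an adjusted p under 0.1. No 2 libraries agreed within sampling noise (chi-square per degree of freedom 11.3 to 76.3).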

Additional observations from a re-analysis of the deposited data

How the results depend on the processing

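No member was called under any alternative run, and 24 of 24 mitotic members were negative under each except without KO replicate 1, where 23 were. The mitotic median ran from -0.41 to -0.22 and the S-phase median from -0.07 to 0.08. Members lower in KO at an unadjusted p under 0.05 (8) numbered 3 by library size alone (beside 0.896% of all genes), 4 with upper-quartile scaling (1.46%) and 4 to 14 with 1 library left out (1.22% to 4.46%). Library size alone moved the median of all genes to 0.07, the mitotic median to -0.22 and the S-phase median to 0.08, with 2 instead of 5 of 11 S-phase members negative, and left 153 of 957 genes at an unadjusted p under 0.05 lower in KO, against 359 of 886 with TMM. Genes called over the whole table (0) numbered 3 without a count filter, 8 by DESeq2 and 0 to 2 with 1 library left out. By library size alone the mitotic average of WT library 3 also fell inside the KO range. With the replicate number as a block 4 members had an unadjusted p under 0.05, while the share of all genes lower at that level was 1.19%, against 2.10% without the block. Same-numbered libraries correlated at -0.03, -0.44 and -0.31 in their deviations from the group means. These values gave no sign of pairing by number. They cannot show that the samples were unpaired, because deviations within 3 libraries per group depend on each other. A CHR of TTTGAA alone was in 70.0% of mitotic and 10% of S-phase windows. The smallest adjusted p of a member ran from 0.177 (DESeq2) to 1.00 (without KO replicate 3). The cause of these shifts was not tested.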

Other observations

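Of 17 G1 cyclins, kinases and E2F genes 11 were negative, with a median log2 fold change of -0.02. At an unadjusted p under 0.05, edgeR gave 1 lower and 1 higher, beside 2.10% and 3.08% of all genes tested. Every KO library lay below every WT library for 2 of the 17 and above for 1, beside 4.90% and 6.21% of all genes. E2f8, an atypical repressor of the E2F family known in liver for its part in hepatocyte polyploidy, had 6.80, 5.23 and 4.81 CPM in KO and 9.21, 7.39 and 9.28 CPM in WT libraries, without overlap (log2 fold change -0.62, SE 0.18, edgeR unadjusted p = 0.00893, adjusted p = 0.850). Its partner E2f7 had 2.44, 2.35 and 2.45 CPM in KO and 3.02, 2.94 and 3.25 CPM in WT libraries (-0.35, SE 0.17). For both, WT library 3 was the highest library, unlike for most mitotic genes. Mycn, a MYC family transcription factor, had 2.18, 2.77 and 1.83 CPM in KO and 0.941, 1.22 and 0.909 CPM in WT libraries, all KO libraries above all WT libraries (1.14, SE 0.26, edgeR unadjusted p = 0.00238, adjusted p = 0.850). Mycn rested on few reads, 41 to 73 per KO library and 19 to 29 per WT library.

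Of the genes that restrain the cycle, 18 were listed, 17 found and 16 tested, with 6 negative and a median of 0.01. Every KO library lay below every WT library for 2 of the 16 and above for 1, beside 4.90% and 6.21% of all genes. Btg2, an antiproliferative gene induced by p53, had 39.0, 44.4 and 42.9 CPM in KO and 56.0, 45.0 and 72.1 CPM in WT libraries (-0.45, SE 0.16). Ccng2, a cyclin of resting cells, had 24.2, 25.5 and 25.6 CPM in KO and 26.6, 29.7 and 34.8 CPM in WT libraries, without overlap (-0.27, SE 0.11). Cdkn1a, the inhibitor p21, was at -0.58 (SE 0.38), with 49.5, 92.6 and 43.9 CPM in KO and 67.1, 64.2 and 147 CPM in WT libraries. Cdkn1a and Btg2 were highest in WT library 3, which held the highest level for 23.97% of all genes tested. Their relation to the mitotic level was not tested. None of these genes passed after adjustment.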
